A study of Mus musculus with 9 samples.

Results

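Cholesterol efflux and LXR target genes were followed in RAW264.7 cells, a mouse macrophage line that forms osteoclast-like cells under RANKL, the cytokine that drives osteoclast formation. The group holds 10 of the 56691 genes in the deposited table and its members were found by gene symbol, from a set named with earlier results of these data known: the LXR receptor genes Nr1h3 and Nr1h2, the sterol exporters Abca1 and Abcg1, the sterol acceptor Apoe, the lipase gene Lpl, the lysosomal export genes Npc1 and Npc2, the esterifying enzyme Soat1 and the receptor-degrading ligase Mylip. RNA was sequenced in 9 libraries after 3 days of culture, 3 each from untreated control cells (control), from cells given RANKL (RANKL) and from cells given RANKL together with uridine (RANKL + UD). Uridine is a pyrimidine nucleoside, and the series' description names neither its dose nor that of RANKL. All groups are the same cell line, there was no group given uridine without RANKL, and the series' description calls the libraries of a group biological replicates.

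Liver X receptors (LXRs) are nuclear receptors that are switched on by oxysterols, the oxidized forms of cholesterol, and bind DNA together with a retinoid X receptor (RXR). In macrophages they raise transcription of Abca1 and Abcg1, whose products move cholesterol out of the cell onto lipoprotein particles, and of Apoe, Lpl and Mylip. Lipoprotein cholesterol taken up by endocytosis is freed in the lysosome, leaves it through NPC2 and NPC1, and is then exported, used in membranes or stored as ester by the SOAT1 enzyme.

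Markers of macrophages and of osteoclasts were present. The summed FPKM (fragments counted, scaled to exon length and library total) of 10 osteoclast markers, among them Acp5 and Ctsk, ran from 57.6 to 60.3 in control, from 2715 to 2920 in RANKL and from 1724 to 1761 in RANKL + UD. That of 10 macrophage markers was 10035 to 10597, 2791 to 3041 and 2393 to 2530 in the same order, and most of it was Lyz2 (a mean of 8000 FPKM in control). Of these 10 genes RANKL lowered 8 and raised Cd68 and Spi1, by 0.60 and 0.64 on the log2 scale. UD against RANKL lowered 8 and raised Adgre1, by 0.22. Over all tested genes 30.2% were lower and 27.3% higher with RANKL, and 20.2% and 18.6% with UD against RANKL. None of 8 fibroblast and osteoblast markers and none of 5 lymphocyte markers reached 1 FPKM in any library. Because the RNA came from whole cultures, fewer cells that express a gene and less of its RNA per cell cannot be told apart, and the part of the shift from macrophage to osteoclast markers in the results was not tested. Libraries held 15951800 to 19746862 counted reads.

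Every one of the 10 genes reached 1 FPKM in all 9 libraries and was tested. Against control, RANKL raised 5 of them (Npc2, Npc1, Nr1h3, Lpl and Soat1) and lowered 3 (Mylip, Abca1 and Abcg1) by the quasi-likelihood test of edgeR with an adjusted p threshold of 0.05. Over the 11995 tested genes 27.3% were higher and 30.2% lower, or 57.6% in either direction. Against RANKL, adding UD raised Apoe and lowered 6 (Abca1, Npc2, Lpl, Soat1, Npc1 and Nr1h2), where 18.6% of all genes were higher and 20.2% lower, or 38.8% in all. Against control, RANKL + UD raised 3 (Apoe, Npc2 and Npc1) and lowered 6 (Abca1, Mylip, Soat1, Lpl, Abcg1 and Nr1h2), against a background of 26.7% higher and 27.3% lower, or 54.0% in all. A fitted fold over 1.5 as well was reached by 4 of the 10 genes in RANKL against control (24.9% of all tested genes), 3 in RANKL + UD against RANKL (9.86%) and 4 in RANKL + UD against control (22.1%). The median log2 fold change of the 10 genes was 0.04, -0.37 and -0.30 in these comparisons, and that of all tested genes was -0.03, 0.005 and -0.002. The comparisons share libraries, so their values stand side by side and are not independent.

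**Figure D1:**
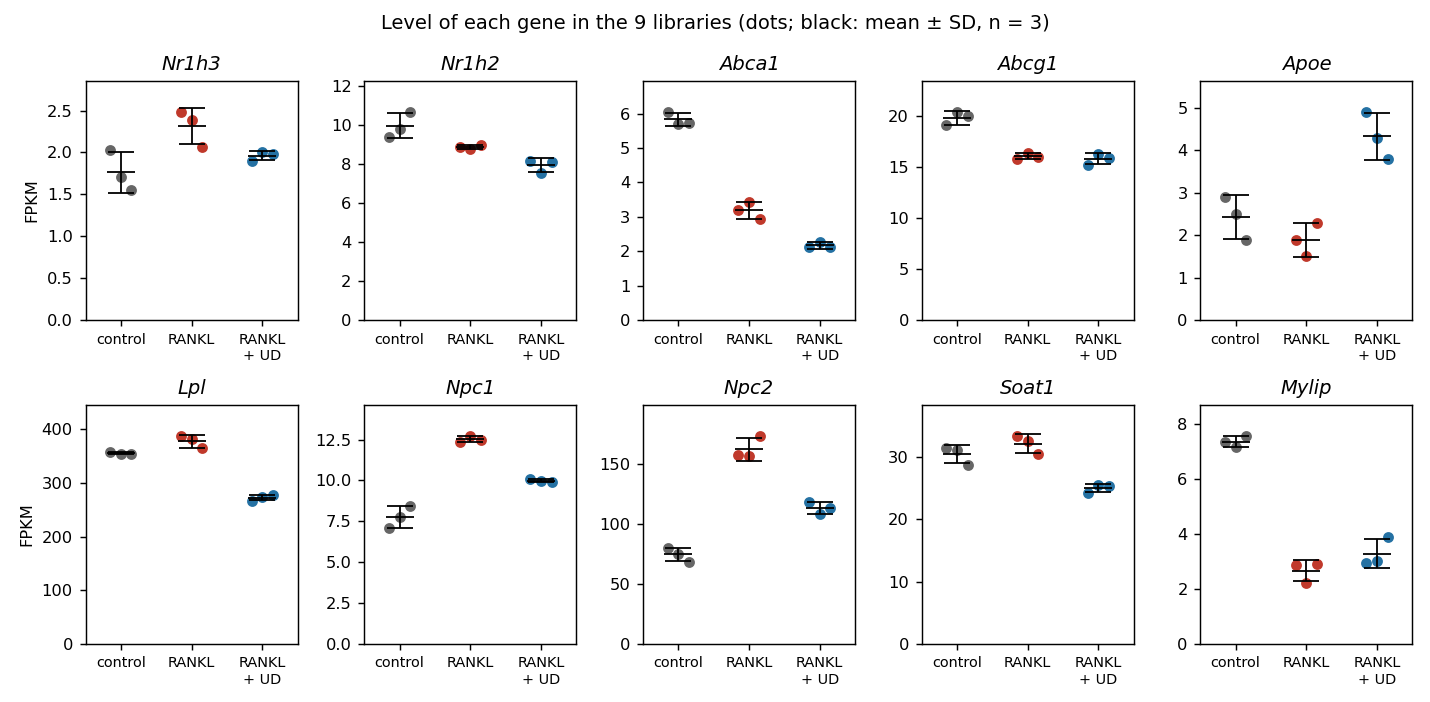
FPKM (vertical axes, from 0) of the 10 genes in control, RANKL and RANKL + UD. Each dot is 1 library, the black bars are the mean ± SD of 3 libraries, and the panels show Abca1 stepping down, Npc1 and Npc2 highest with RANKL, and Apoe highest with RANKL + UD.

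FPKM takes no account of the composition of a library, whereas the test scaled the libraries by TMM (trimmed mean of M-values). The TMM factors were 0.959 to 0.962 for RANKL and 1.01 to 1.03 for the other libraries, so a fitted fold between RANKL and another group differs slightly from the ratio of mean FPKM. With total counts in place of TMM, 36.8% rather than 47.5% of the called genes were higher in RANKL against control, and 66.2% rather than 48.0% in RANKL + UD against RANKL. Small changes of the 10 genes, and calls of other named genes, are therefore given with that alternative where it decides them.

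Of the receptor genes, Nr1h3 encodes LXRα, and Nr1h2 encodes LXRβ, which is found in most tissues. Nr1h3 (ENSMUSG00000002108, chromosome 2, 91014406 to 91033179) stood at 2.03, 1.71 and 1.55 FPKM in the control libraries, 2.48, 2.39 and 2.07 with RANKL, and 1.90, 2.00 and 1.98 with RANKL + UD. The RANKL libraries lay above those of the other groups, which overlapped each other. These levels rest on 62 to 123 reads per library, the shallowest counts among the 10 genes together with those of Apoe. Nr1h3 was higher in RANKL than in control by 0.48 on the log2 scale (SE 0.175, edgeR adjusted p = 0.0239). That call was lost without control replicate 2 (edgeR adjusted p = 0.0677), control replicate 3 (0.0812), RANKL replicate 1 (0.0785) or RANKL replicate 2 (0.0635), and with total counts (0.0616). Its log2 difference between RANKL + UD and RANKL was -0.33, with a 95% interval of -0.69 to 0.03 (edgeR adjusted p = 0.147).

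Nr1h2 (ENSMUSG00000060601, chromosome 7, 44199040 to 44203375) was the more abundant receptor transcript in every library, at 9.40, 9.80 and 10.7 FPKM in control, 8.88, 8.76 and 8.97 with RANKL, and 8.17, 7.53 and 8.11 with RANKL + UD. The 3 groups did not overlap and stood in that order. After TMM scaling the RANKL group differed from control by -0.08 on the log2 scale (SE 0.0803, edgeR adjusted p = 0.43), although limma on log2(FPKM + 1) called it lower (adjusted p = 0.0477). RANKL + UD was lower than RANKL by a log2 difference of -0.24 (SE 0.0815, edgeR adjusted p = 0.0213). This call was lost with total counts (adjusted p = 0.127), with limma on log2(FPKM + 1) (0.072) or log2(FPKM + 0.1) (0.0695), without a filter on low values (0.0613), without RANKL replicate 3 (0.0503) and without RANKL + UD replicate 2 (0.0959). Against control, RANKL + UD lowered Nr1h2 by 0.32 (SE 0.0815, edgeR adjusted p = 0.00211).

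The balance of the receptor transcripts within a library does not depend on how libraries are scaled. Nr1h2 exceeded Nr1h3, in FPKM, by 4.63-, 5.73- and 6.87-fold in the control libraries, 3.58-, 3.67- and 4.33-fold with RANKL, and 4.30-, 3.77- and 4.10-fold with RANKL + UD. Every library given RANKL, with or without UD, thus had a smaller excess of Nr1h2 than any control library. The mean log2 ratio of Nr1h3 to Nr1h2 was -2.50 ± 0.285 in control, -1.94 ± 0.15 in RANKL and -2.02 ± 0.097 in RANKL + UD (mean ± SD of 3 libraries). The difference of 0.56 between RANKL and control had p = 0.1 in a two-sided exact permutation test, the smallest p that 3 against 3 libraries allow (0.15 after adjustment over the 3 comparisons). The difference of -0.07 between RANKL + UD and RANKL had an exact permutation p of 0.6.

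**Figure D2:**
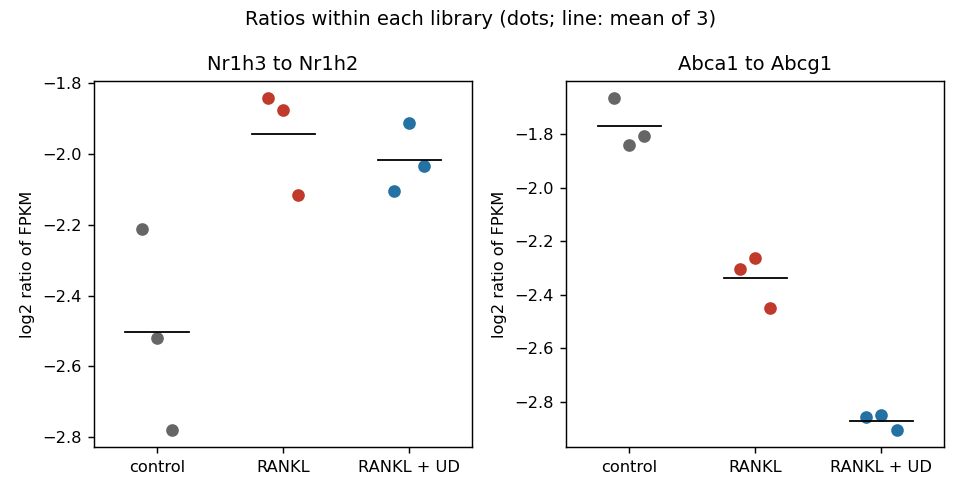
Log2 ratio of FPKM within each library (vertical axes) for Nr1h3 to Nr1h2 and for Abca1 to Abcg1. Each dot is 1 library and each line the mean of 3. For Abca1 to Abcg1 the 3 groups are separate and step down from control to RANKL + UD.

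Abca1 encodes the exporter that loads cholesterol and phospholipid onto lipid-poor apolipoproteins. Its transcript (ENSMUSG00000015243, chromosome 4, 53030787 to 53159895, reverse strand) fell in steps. It stood at 6.04, 5.71 and 5.74 FPKM in control, 3.21, 3.43 and 2.94 with RANKL, and 2.11, 2.27 and 2.12 with RANKL + UD. No library of a group reached those of the next. RANKL lowered Abca1 by 0.78 on the log2 scale, or 1.72-fold (SE 0.075, edgeR adjusted p = 1.27e-08). UD lowered it by a further 1.57-fold (log2 difference -0.65, SE 0.08, edgeR adjusted p = 1.67e-06), which left RANKL + UD 2.69-fold under control (edgeR adjusted p = 1.47e-12). Each of these calls held in all 20 alternatives, with log2 differences of -0.87 to -0.55 for RANKL against control and -0.70 to -0.40 for RANKL + UD against RANKL. In rank, Abca1 went from percentile 43.0 of the tested genes in control to 30.3 in RANKL and 20.3 in RANKL + UD.

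The promoter of Abca1 is shown because its transcript was called lower in every comparison and in all alternatives run, and because it holds a DR4-like match. LXR and RXR bind as a pair to a DR4 element, a direct repeat of AGGTCA half-sites separated by 4 bases. The RefSeq promoter table, on GRCm38.p6, holds 7 of the 10 genes, with 250 bases before and 50 after each start. The best DR4 match of each promoter was searched on both strands. In the Abca1 promoter it differed at 3 of the 12 half-site positions and began 67 bases upstream of the start, on the strand opposite to the gene. Capitals mark this match and, further upstream, a CACGTG E-box.

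Abca1 promoter, chr4:53159846-53160145, reverse strand: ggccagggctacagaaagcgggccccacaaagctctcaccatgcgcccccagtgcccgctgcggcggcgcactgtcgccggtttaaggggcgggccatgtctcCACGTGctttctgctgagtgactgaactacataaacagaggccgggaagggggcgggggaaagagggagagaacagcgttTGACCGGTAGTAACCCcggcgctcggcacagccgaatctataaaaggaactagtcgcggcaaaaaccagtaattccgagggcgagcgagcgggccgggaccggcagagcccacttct

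A DR4 match with at most 3 mismatches stood in 21.9% of the 32851 promoters of the table, and CACGTG in 7.15%. Of the 7 genes with a promoter in the table Abca1 had such a match, the best matches of Soat1, Nr1h3, Apoe, Nr1h2 and Npc2 having 4 mismatches and that of Mylip 5. Of 3 listed promoters of Srebf1, another LXR target, the one at chr11:60210422-60210721 (reverse strand) held TGACCGCCAGTAACCC, also with 3 mismatches. Srebf1 itself was not called in any comparison, as described with its list. A match is a property of these letters, and elements outside the window were not searched.

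Abcg1 encodes the exporter that hands cholesterol to mature high-density lipoprotein. Abcg1 (ENSMUSG00000024030, chromosome 17, 31276649 to 31336962) was more abundant than Abca1 throughout and changed less. The control libraries had 19.1, 20.4 and 20.1 FPKM, those with RANKL 15.8, 16.4 and 16.1, and those with RANKL + UD 15.3, 16.3 and 15.9. The groups given RANKL overlapped each other and lay under control. The log2 difference between RANKL and control was -0.21 (SE 0.0489, edgeR adjusted p = 0.000781). That between RANKL + UD and RANKL was -0.11, with a 95% interval of -0.21 to -0.01, and missed the threshold (edgeR adjusted p = 0.079), as it did in all 20 alternatives.

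The excess of Abcg1 over Abca1 within a library widened. It was 3.17-, 3.58- and 3.50-fold in the control libraries, 4.94-, 4.80- and 5.46-fold with RANKL, and 7.24-, 7.20- and 7.50-fold with RANKL + UD, with no overlap between the 3 groups. This ratio was chosen after the values of the genes had been seen, and is given without a test.

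Apolipoprotein E accepts cholesterol at the cell surface and carries it in lipoproteins, and RAW264.7 cells are known for making little of it. Apoe (ENSMUSG00000002985, chromosome 7, 19430034 to 19433113) stood at 2.89, 2.51 and 1.88 FPKM in control, 1.88, 1.5 and 2.29 with RANKL, and 4.90, 4.30 and 3.79 with RANKL + UD, on 62 to 206 reads per library. Control and RANKL overlapped, and each RANKL + UD library was above every other library. UD raised Apoe 2.16-fold over RANKL (log2 difference 1.11, SE 0.191, edgeR adjusted p = 9.14e-05), the largest rise among the 10 genes in that comparison. RANKL + UD was also 1.79-fold over control (log2 difference 0.84, SE 0.188, edgeR adjusted p = 0.00076). RANKL against control gave -0.28 with a 95% interval of -0.70 to 0.14 (edgeR adjusted p = 0.252). Both rises were called in all 20 alternatives, with 0.81 to 1.27 for UD against RANKL. Even so, Apoe stayed under the median gene, at percentile 36.5 of the tested genes with RANKL + UD.

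Lipoprotein lipase cleaves the triglyceride of lipoproteins, and its gene was by far the most abundant of the 10, at percentile 98.9 to 99.3 of the tested genes in every group. Lpl (ENSMUSG00000015568, chromosome 8, 69333143 to 69360100) had 359, 355 and 355 FPKM in control, 388, 382 and 365 with RANKL, and 267, 274 and 277 with RANKL + UD. The RANKL + UD libraries formed a separate low group. UD lowered Lpl 1.47-fold against RANKL (log2 difference -0.56, SE 0.0419, edgeR adjusted p = 1.82e-09) and 1.31-fold against control (log2 difference -0.38, SE 0.0418, edgeR adjusted p = 9.54e-08). The difference between RANKL and control was 0.17 (SE 0.0417, edgeR adjusted p = 0.0013). It was not called with total counts (0.08, adjusted p = 0.0876) and became -0.07 under quantile normalization (limma adjusted p = 0.25), so the direction of this small change depends on the scaling.

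NPC2 is a soluble lysosomal protein that binds free cholesterol and passes it to NPC1, the membrane protein through which cholesterol leaves the lysosome. Npc2 (ENSMUSG00000021242, chromosome 12, 84801336 to 84819926) stood at 79.7, 75.0 and 68.5 FPKM in control, 157, 156 and 173 with RANKL, and 118, 109 and 113 with RANKL + UD. The 3 groups were separate, with RANKL + UD between the others. RANKL raised Npc2 2.31-fold (log2 difference 1.21, SE 0.0587, edgeR adjusted p = 1.62e-13), the largest rise of the 10 genes in that comparison. UD lowered it 1.52-fold against RANKL (log2 difference -0.60, SE 0.0579, edgeR adjusted p = 5.57e-08), and it remained 1.52-fold above control (edgeR adjusted p = 1.44e-08).

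Npc1 (ENSMUSG00000024413, chromosome 18, 12322749 to 12369457) had the same order of groups at a lower level. Its FPKM was 7.11, 7.75 and 8.43 in control, 12.3, 12.7 and 12.5 with RANKL, and 10.1, 9.95 and 9.90 with RANKL + UD, without overlap. RANKL raised it 1.71-fold (log2 difference 0.78, SE 0.0564, edgeR adjusted p = 1.38e-10) and UD lowered it 1.33-fold against RANKL (log2 difference -0.41, SE 0.0555, edgeR adjusted p = 5.28e-06). RANKL + UD stayed 1.29-fold above control (edgeR adjusted p = 1.39e-05). Npc1 shares bases with Rmc1 on the opposite strand, which had a mean of 582 reads per library against 2098 for Npc1, and strand use in the counting is not given in the sources used here. Rmc1 was not called in any comparison, with log2 differences of 0.17, 0.01 and 0.18 (edgeR adjusted p = 0.0719, 0.909 and 0.0551) in the order RANKL against control, RANKL + UD against RANKL and RANKL + UD against control.

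SOAT1 converts free cholesterol into the ester that is stored in lipid droplets. Soat1 (ENSMUSG00000026600, chromosome 1, 156252095 to 156301901) was at 31.4, 31.2 and 28.8 FPKM in control, 33.4, 32.5 and 30.5 with RANKL, and 24.2, 25.4 and 25.3 with RANKL + UD. As for Lpl, control and RANKL lay close together and RANKL + UD lay apart below them. UD lowered Soat1 1.37-fold against RANKL (log2 difference -0.45, SE 0.0504, edgeR adjusted p = 4.68e-07) and 1.22-fold against control (edgeR adjusted p = 6.46e-05). RANKL against control gave 0.16 (SE 0.0501, edgeR adjusted p = 0.00797) with overlapping FPKM, and this was not called with total counts (0.08, adjusted p = 0.202) or limma on log2(FPKM + 1) (0.08, adjusted p = 0.273).

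Mylip encodes IDOL, a ubiquitin ligase that sends lipoprotein receptors, VLDLR and LRP8 among them, to degradation. Mylip (ENSMUSG00000038175, chromosome 13, 45543218 to 45565498) had 7.35, 7.17 and 7.58 FPKM in control, 2.86, 2.22 and 2.90 with RANKL, and 2.93, 3.02 and 3.90 with RANKL + UD. Control stood far above both other groups. RANKL lowered Mylip 2.60-fold (log2 difference -1.38, SE 0.128, edgeR adjusted p = 7.5e-09), the largest fall of the 10 genes in that comparison. RANKL + UD remained 2.24-fold under control (log2 difference -1.17, SE 0.127, edgeR adjusted p = 9.27e-08). Its log2 difference from RANKL was 0.21, with a 95% interval of -0.07 to 0.50 (edgeR adjusted p = 0.232), although the FPKM of these groups did not overlap. Libraries of the groups did not overlap in FPKM for 9 of the 10 genes in this comparison and 51.7% of all tested genes, for 8 and 61.7% in RANKL against control, and for 9 and 59.9% in RANKL + UD against control.

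**Figure D3:**
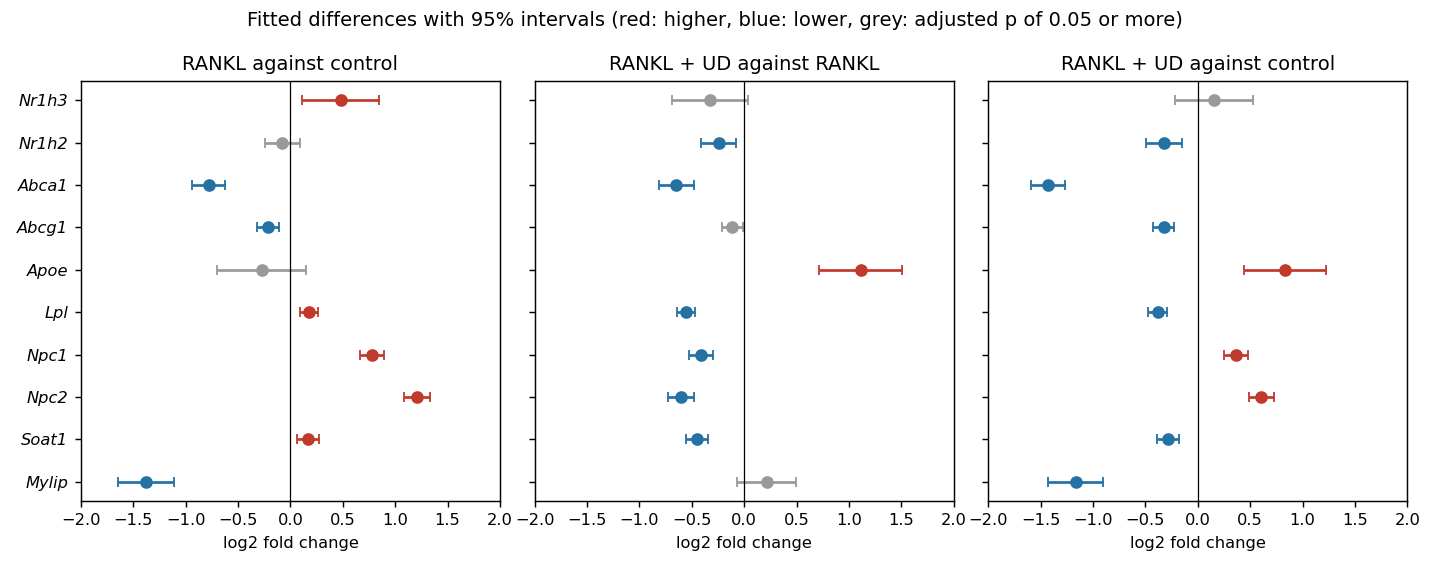
Fitted log2 fold change (horizontal axis) of the 10 genes with its 95% interval, in 3 comparisons. Red points were called higher, blue points lower, and grey points had an adjusted p of 0.05 or more. Abca1 lies left of 0 in every panel, and Npc1 and Npc2 change side between the first and the second.

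Per length, Lpl was the most abundant of the 10 transcripts in every group, followed by Npc2, Soat1 and Abcg1, whose libraries did not overlap one another within a group. Below these, Npc1 and Mylip overlapped in control (7.11 to 8.43 and 7.17 to 7.58 FPKM), as did Apoe and Nr1h3 (1.88 to 2.89 and 1.55 to 2.03). With RANKL, Mylip (2.22 to 2.90), Nr1h3 (2.07 to 2.48) and Apoe (1.5 to 2.29) could not be put in order. With RANKL + UD, Nr1h3 was the lowest of the 10 in all 3 libraries, under Abca1 (1.90 to 2.00 and 2.11 to 2.27 FPKM), and Apoe stood above both.

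Other genes of the pathway were described from 7 lists. Over all tested genes, RANKL raised 27.3% and lowered 30.2%, and UD against RANKL raised 18.6% and lowered 20.2%. Among 10 LXR partners and coregulators, 7 were tested. RANKL raised 1 and lowered 4 of these (6 with total counts), and UD against RANKL raised 0 and lowered 2 (1 with total counts, which did not call Ncoa3). The retinoid X receptor gene Rxrb went from 13.2 ± 0.764 FPKM in control to 15.7 ± 1.58 in RANKL and 13.4 ± 1.38 in RANKL + UD (mean ± SD of 3 libraries), which was called in each step (log2 difference 0.33, edgeR adjusted p = 0.00173, then -0.31, edgeR adjusted p = 0.00463). Rxra did not pass the filter on low values. It had 81 to 109 reads per library in control, 5 to 17 with RANKL and 7 to 17 with RANKL + UD, and in a fit without that filter RANKL lowered it by a log2 difference of -3.33 (SE 0.342, edgeR adjusted p = 3.06e-21). Ppard, a nuclear receptor of fatty acids that also pairs with RXR, fell with RANKL from 4.13 ± 0.427 to 1.5 ± 0.176 FPKM (mean ± SD of 3 libraries, log2 difference -1.38, edgeR adjusted p = 4.76e-09). The coactivator genes Ncoa3 and Ncoa1 fell by 0.56 and 0.40 on the log2 scale with RANKL.

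Of 14 other LXR targets 7 were tested, and RANKL raised 3 and lowered 3 of them. Arl4c, a small GTPase gene of cholesterol transport, fell from 6.59 ± 0.07 FPKM in control to 0.517 ± 0.0351 with RANKL (log2 difference -3.58, edgeR adjusted p = 3.48e-15). Smpdl3a, a phosphodiesterase gene, fell with RANKL by 1.38 and with UD by a further 0.69 on the log2 scale (edgeR adjusted p = 5.38e-12 and 4.25e-06). In that sequence of steps it moved in the directions of Abca1. Cd5l, which encodes a secreted macrophage protein, and Pltp, which encodes a phospholipid transfer protein, moved otherwise. Cd5l rose by 1.76 with RANKL and fell by 2.44 with UD on the log2 scale, and Pltp rose by 0.95 and fell by 1.24. Cd5l passed the filter on low values only through the RANKL libraries, and Arl4c only through the control libraries. The filter thus favoured the directions seen in these 2 genes. Cd5l was low throughout, at 1.77 ± 0.211 FPKM in RANKL and 0.337 ± 0.106 in RANKL + UD (mean ± SD of 3 libraries), and Pltp overlaps Ctsa, which has 11722 reads per library on the opposite strand against its own 1138. Srebf1, the LXR target that controls fatty acid synthesis, had log2 differences of -0.09 and -0.10 and was not called (edgeR adjusted p = 0.379 and 0.39). UD against RANKL raised 1 gene of this list, Lpcat3 (0.27), and lowered 3 (2 and 3 with total counts). Lpcat3 overlaps Emg1, which had 1621 reads per library on the opposite strand against its own 825.

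Of 9 receptors that take up lipoproteins 6 were tested. With RANKL 5 of these fell and Lrp1 rose, where 30.2% of all tested genes were lower and 27.3% higher, with a median log2 fold change of -0.79 against -0.03 for all tested genes. The scavenger receptor genes Cd36, Scarb1 and Msr1 fell by 0.93, 0.90 and 0.67. Lrp8, whose product the Mylip protein degrades, fell by 0.90 with RANKL and rose by 0.84 with UD (edgeR adjusted p = 1.08e-09 and 1.73e-08). Vldlr had at most 8 reads in any library. Lrp1, a large endocytic receptor for apolipoprotein E, moved the other way from Lrp8, up by 0.52 with RANKL and down by 0.73 with UD (edgeR adjusted p = 8.07e-08 and 2.53e-09).

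Of 18 genes for storage, hydrolysis and transfer of sterol 16 were tested. RANKL raised 4 and lowered 8 of them (27.3% and 30.2% of all tested genes), or 4 and 9 with total counts. UD against RANKL raised 5 and lowered 7 (18.6% and 20.2% of all tested genes), or 6 and 6 with total counts. The largest change under UD was in Soat2, the second esterifying enzyme gene, which stood at 4.74 ± 0.386 FPKM in control, 4.31 ± 0.356 in RANKL and 1.02 ± 0.252 in RANKL + UD (mean ± SD of 3 libraries, log2 difference -2.15 against RANKL, edgeR adjusted p = 8.41e-09). Under UD both esterifying enzyme genes were thus lower. Nceh1, which hydrolyses stored ester, rose by 0.31 with RANKL and fell by 0.30 with UD, and Lipa, the lysosomal hydrolase gene, was higher by 0.16 with UD (edgeR adjusted p = 0.00715). The sterol transfer gene Stard4 and Tmem97, whose product binds NPC1, rose with UD by 0.52 and 0.58 on the log2 scale.

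**Figure D4:**
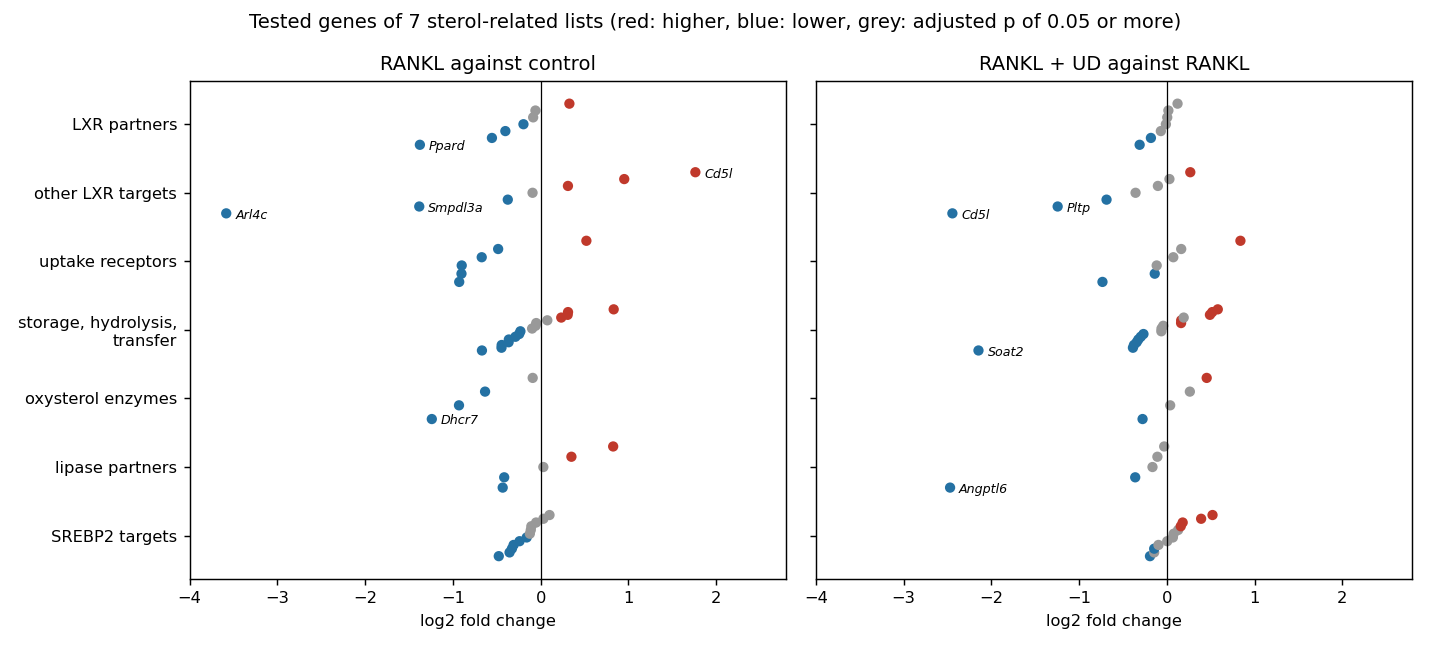
Log2 fold change (horizontal axis) of the tested genes of 7 sterol-related lists, for RANKL against control and RANKL + UD against RANKL. Each dot is 1 gene, red if called higher, blue if lower and grey otherwise, and genes beyond 1.2 are named. Of the 6 uptake receptors 5 lie left of 0 in the first panel, and Soat2, Cd5l and Angptl6 stand apart in the second.

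Of 8 genes that make or consume oxysterols, the ligands of LXR, 4 were tested, of which RANKL raised 0 and lowered 3. Cyp27a1, which makes 27-hydroxycholesterol in macrophages, fell from 19.5 ± 0.437 to 9.64 ± 1.05 FPKM with RANKL (mean ± SD of 3 libraries, log2 difference -0.93, edgeR adjusted p = 1.3e-08) and by another 0.28 with UD (edgeR adjusted p = 0.0249), the latter not being called with total counts (-0.19, adjusted p = 0.116). Ch25h, which makes 25-hydroxycholesterol, had at most 2 reads in any library. Dhcr7, an enzyme gene of cholesterol synthesis, fell by 1.24 with RANKL on the log2 scale (edgeR adjusted p = 5.66e-09).

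Of 9 genes listed as lipase partners 5 were tested: Angptl6, Lmf1, Lmf2 and the genes of other lipases, Lipe and Pnpla2. Under RANKL 2 were higher (Angptl6 and Lmf1) and 2 lower (Lmf2 and Lipe), or 1 and 2 with total counts. Under UD 0 were higher and 2 lower (Angptl6 and Pnpla2). Lmf1 and Lmf2 were not called under UD (edgeR adjusted p = 0.502 and 0.302). Angptl6 rose by 0.83 and fell by 2.47 on the log2 scale, but overlaps Shfl, which had 1189 reads per library on the opposite strand against its own 60.2. Gpihbp1, the endothelial anchor of lipoprotein lipase, had no read in any library, which allows up to 3 counts per library. All 12 SREBP2 targets, the genes of cholesterol synthesis and its control, were tested. RANKL raised 0 and lowered 6 of them, and UD against RANKL raised 4 (Sc5d, Idi1, Hmgcs1 and Sqle, by 0.16 to 0.52) and lowered 2 (Insig1 by 0.19 and Srebf2 by 0.14). The FPKM of Insig1 and of Srebf2 overlapped between these groups, and neither was called with total counts (log2 difference -0.11 and -0.06, edgeR adjusted p = 0.225 and 0.429). With total counts the list had 0 higher and 9 lower under RANKL and 6 higher and 0 lower under UD. That scaling also moved all tested genes, to a median log2 fold change of -0.12 and 0.09 in these comparisons. As reported, 27.3% of all tested genes were higher and 30.2% lower under RANKL, and 18.6% and 20.2% under UD. The part of the scaling in the list counts was not tested.

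**Figure D5:**
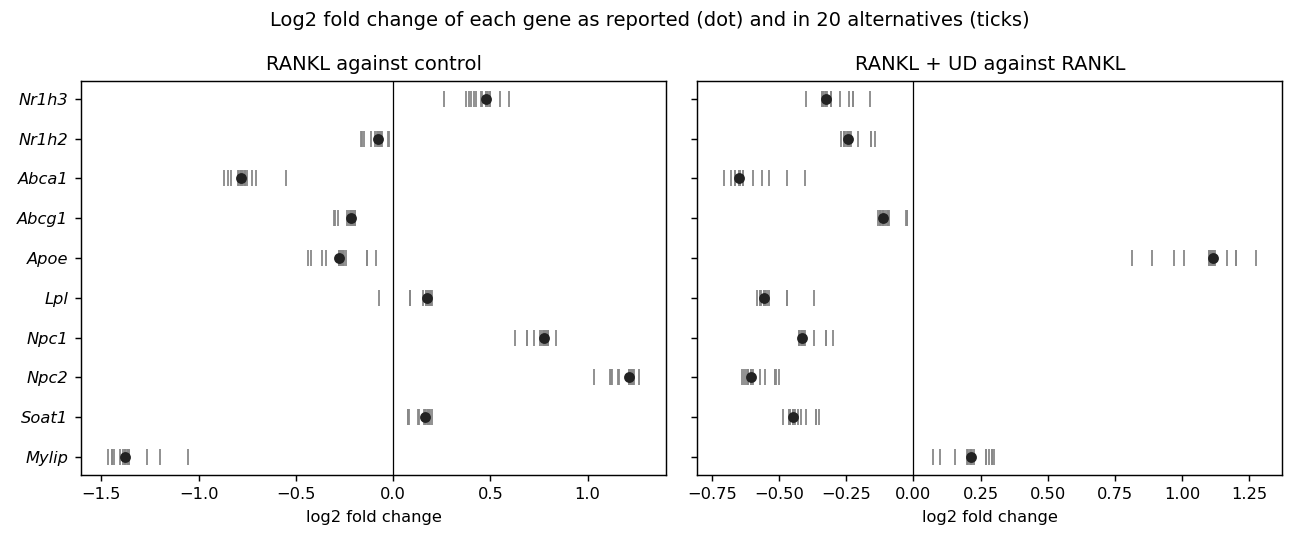
Log2 fold change (horizontal axis) of the 10 genes as reported (dot) and in 20 alternative analyses (ticks) for RANKL against control and RANKL + UD against RANKL. One tick of Lpl lies on the other side of 0, at -0.07 under quantile normalization.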

How the data were processed

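The authors deposited, for each gene and library, whole-number read counts without normalization and FPKM values, which divide the count by the exonic length and by the library total. Recomputing FPKM from the deposited counts gave the same values for 100% of genes in every library, within 0.0051. Libraries were poly(A)-selected and strand-specific per the labels, and DESeq2 was the authors' own test. The submitters' processing notes name mm10, but only 1472 of 52073 genes shared with GRCm38 have identical coordinates there, so coordinates are those of the deposited table. Its aligner, counter and strand setting are not given in the sources used here. All 18 value columns were matched to a library by name, the RANKL libraries being the model group of the table. No row lacked a gene identifier (0 of 56691).

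The 11995 genes that reached 1 FPKM in 3 or more libraries entered edgeR 4.0.16 (R 4.3.3), with TMM scaling, a single quasi-likelihood fit of the 9 libraries and p-values adjusted by Benjamini-Hochberg. Called means an adjusted p under 0.05. Intervals cover 95%. Library totals were 15951800 to 19746862 reads, and a gene with 3 counts or fewer was taken as at the floor; counts cover counting error only. Replicates of a group exceeded sampling noise in their differences (chi-square per degree of freedom 3.00 to 9.75). The p-values measure the spread between these cultures as labelled. Alternatives used DESeq2 1.42.0, limma 3.58.1 on log2(FPKM + 1) or with a pseudocount of 0.1, quantile normalization, RLE size factors, total counts, other filters, fits on only the 6 compared libraries, a block for replicate number, omission of every library singly, and a fold change over 1.5. The fitting steps were tested on simulated data. Python 3.11.15 with scipy 1.17.1 made the remaining tables.

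The 10 genes, the lists and the alternatives were chosen with earlier results of these data known. Named genes are the 10 genes, a few partners listed by role, and in each list the up to 4 called genes with the largest change in either of the first comparisons. Genes most like Abca1, Abcg1, Lpl and Nr1h3 were taken by Pearson r of log2 CPM over the 9 libraries. Promoters are RefSeq, GRCm38.p6. Some genes that this rule names are not reported here.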

Additional observations from a re-analysis of the deposited data

How the results depend on the processing

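Over all alternatives, 564 values of the 10 genes had the reported direction and side of the threshold, 31 lost the threshold, 4 passed it and 1 changed direction. Total counts left 2 genes higher in RANKL against control (Npc1 and Npc2), and limma on log2(FPKM + 1), with a pseudocount of 0.1 or after quantile normalization left 3, against 5. Requiring a fold change over 1.5 as well left 2 higher in that comparison, 2 lower in RANKL + UD against RANKL and 2 lower in RANKL + UD against control, by its own construction. Lpl in RANKL against control was -0.0717 on the log2 scale under quantile normalization. Leaving out 1 library gave 4 to 5 higher and 3 lower genes in RANKL against control, 1 higher and 5 to 6 lower in RANKL + UD against RANKL, and 3 and 6 in RANKL + UD against control. Over all genes, total counts gave 3350 higher genes in RANKL + UD against RANKL (2233 reported), limma 1539 lower, or 1488 with a pseudocount of 0.1 (2418 reported), and the fold threshold 525 higher and 658 lower, against 1301 and 1686 in RANKL against control (3278 and 3628) and 1116 and 1531 in RANKL + UD against control (3197 and 3276). The causes of the scaling differences were not tested. Same-numbered libraries of different groups had deviations correlated between -0.0194 and 0.0984, and differently numbered ones between -0.102 and 0.0464. Any link by replicate number was thus weak. With the replicate block, 5 genes were higher and 3 lower in RANKL against control, 1 higher and 6 lower in RANKL + UD against RANKL, and 3 and 6 in RANKL + UD against control, and no call was changed. Nr1h3 and Apoe rest on 62 to 206 reads per library, which limits what can be seen in them.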

Other observations

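The genes whose log2 CPM followed Abca1 most closely over the 9 libraries were Plscr4, a phospholipid scramblase gene, Dhrs9, a short-chain dehydrogenase gene, and Xylt1, a xylosyltransferase gene (Pearson r 0.998, 0.998 and 0.997). For Abcg1 they were Ift172, Hebp1 and Sumf1 (0.993, 0.991 and 0.990), and for Lpl they were Tbc1d15, Cdk9 and Calcoco1 (0.994, 0.993 and 0.993). For Nr1h3 they were Gm39469, E030022I16Rik and Ppp1cb (0.973, 0.965 and 0.959). These are descriptions without a test. The 9 libraries are 3 groups, so genes whose group levels have a similar order and spacing give high values. Of 11994 genes, 325 exceeded 0.95 for Abca1, 281 for Abcg1, 97 for Lpl and 5 for Nr1h3.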
